A study of Homo sapiens with 11 samples.

Results

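Cholesterol and fatty acid synthesis was followed through 33 genes, taken from the count table by their symbols. They are 6 enzymes of the mevalonate part of cholesterol synthesis, 11 enzymes from squalene to cholesterol, 6 genes that sense or carry sterols, 5 genes that make palmitate or its precursors and 5 genes that lengthen or desaturate fatty acids. All 33 were found among the 58721 genes of the count table, and all 33 were among the 23693 genes that passed the filter on low counts. The RNA came from A375 cells, a human melanoma line labelled wild type and grown in DMEM with fetal bovine serum. Withdrawn cells (5 libraries) had been taken off the drug for 4 weeks, persister cells (5 libraries) had lived for 8 weeks in 2 nM trametinib, an inhibitor of the MEK kinases, and parental cells (1 library) had received no drug. Each withdrawn library is labelled as the continuation of the persister culture with the same number, so that the 10 libraries form 5 pairs of cultures of 1 cell line. How the cultures were started is not given, and p-values measure the spread between these cultures only. The parental side of a comparison rests on 1 library and borrows its spread from the other groups.

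Cholesterol is built from acetyl-CoA through mevalonate, isoprenoid units, squalene and lanosterol, and fatty acids are built from the same acetyl-CoA by carboxylation and repeated condensation. The SREBP transcription factors, made as precursors in the endoplasmic reticulum, switch on the enzymes of both routes. SCAP escorts the precursors to the Golgi for cleavage when sterols are scarce, and the INSIG proteins hold SCAP back when sterols are plentiful. Tumour cells use both routes for membranes, and signalling through RAS, ERK and PI3K is known to feed into the SREBPs.

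The persister cells had lower RNA of part of both routes. In persister against parental cells, 9 of the 33 genes were lower (HMGCS1, IDI1, CYP51A1, HSD17B7, SREBF2, STARD4, ACSS2, ACACA and FASN) and 3 were higher (PMVK, MVD and INSIG2), at an edgeR adjusted p under 0.05 over all genes tested. That is 36.4% of the genes in either direction beside 31.2% of all genes tested, with 27.3% lower beside 15.1% of all genes and 9.09% higher beside 16.1%. The total share was near that of all genes. The median log2 fold change of the 33 genes was -0.33, against 0.09 over all genes tested. A fit on only the 6 libraries compared called 3 of the 12, INSIG2 higher and STARD4 and FASN lower, and called 11.3% of all genes it tested. In withdrawn against persister cells, 14 of the 33 genes were higher and 4 lower (PMVK, MVD, LSS and INSIG2), 54.5% in all beside 52.5% of all genes tested. By direction, 42.4% were higher beside 24.5%, and 12.1% were lower beside 28.0%. The median was 0.20 on the log2 scale, against -0.03 over all genes. The 14 genes higher in withdrawn cells were IDI1, FDPS, FDFT1, CYP51A1, MSMO1, HSD17B7, SC5D, SREBF2, STARD4, ACSS2, ACACA, FASN, ELOVL5 and FADS1. The persister libraries serve in both comparisons, so the lower values of the first and the higher values of the second are not independent of each other. The ranges of the 5 withdrawn and the 5 persister libraries did not overlap for 14 of the 33 genes, 42.4% of them, beside 40.6% of all genes tested.

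**Figure D1:**
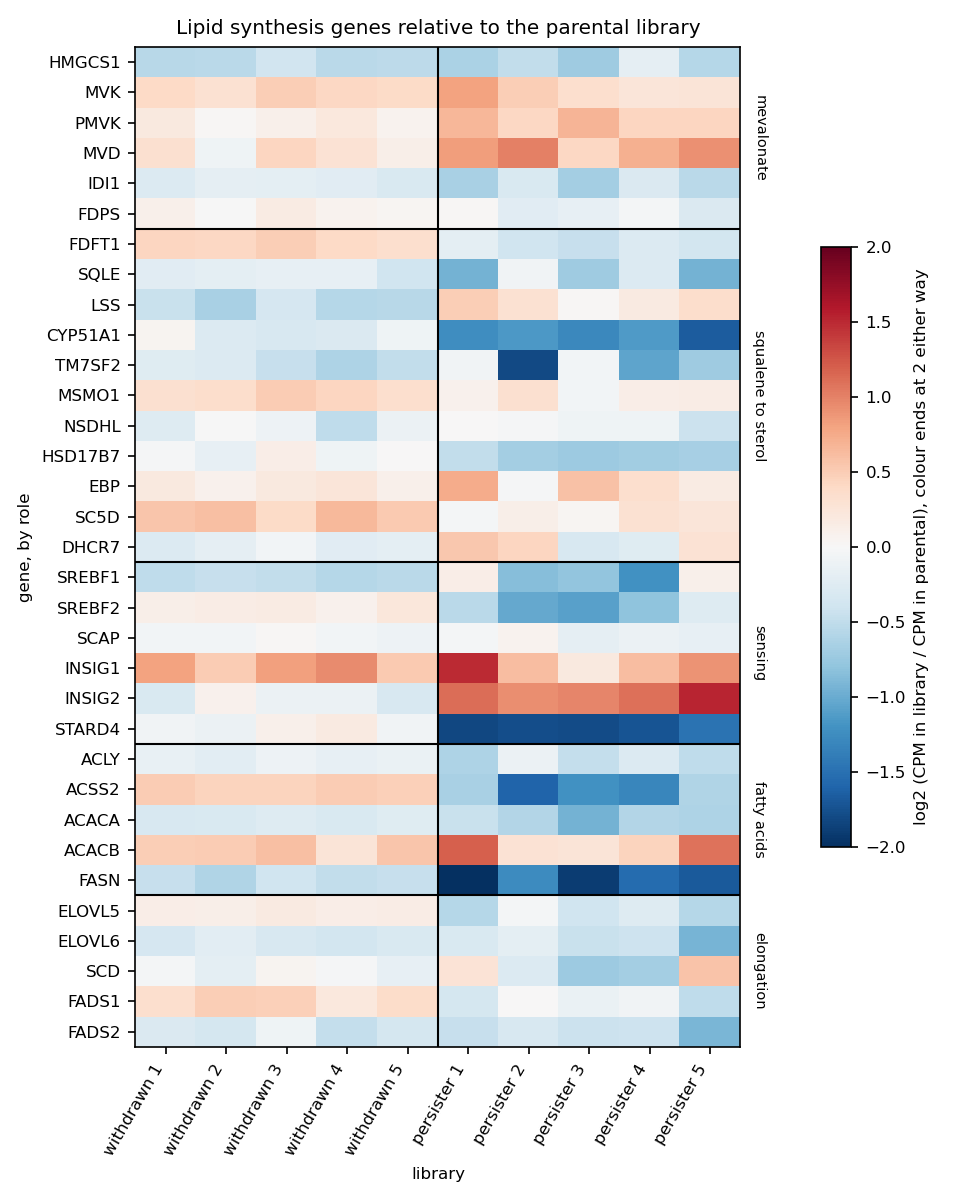
Log2 ratio of each gene's CPM in a library to its CPM in the parental library, for the 33 genes (rows, in order of their roles) in withdrawn cultures 1 to 5 and persister cultures 1 to 5 (columns); red is above and blue below the parental library. The FASN, STARD4 and CYP51A1 rows are blue in all 5 persister libraries, and the INSIG2 row is red in all 5.

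The genes of sterol sensing and transport hold the largest changes in either direction among the 33. SREBF2 (ENSG00000198911, protein-coding, chr22:41833079-41907308, plus strand, hg38) encodes the SREBP that acts mainly on cholesterol genes. SREBF2 was at 155, 159, 161, 152 and 168 CPM in withdrawn cultures 1 to 5, at 99.4, 70.8, 67.96, 82.2 and 121 CPM in persister cultures 1 to 5 and at 144 CPM in parental cells. CPM are counts scaled to the library's size by TMM. All 5 persister libraries lay below the parental library and below every withdrawn library, with persister 1 and 5 the nearest to them. Withdrawn against persister cells gave a log2 fold change of 0.85 ± 0.14 (SE, adjusted p = 0.000439), and persister against parental cells gave -0.70 ± 0.24 (SE, adjusted p = 0.0401). The call against parental cells was lost without persister 3 (adjusted p = 0.0553), persister 4 (adjusted p = 0.0524), withdrawn 1 (adjusted p = 0.0503) or withdrawn 4 (adjusted p = 0.0559), over a range of adjusted p of 0.000102 to 0.162 in 17 alternatives. STARD4 (ENSG00000164211, protein-coding, chr5:111496033-111512590, minus strand, hg38) encodes a soluble protein that carries cholesterol between membranes. STARD4 was at 41.96, 40.3, 46.9, 49.5 and 41.9 CPM in withdrawn cultures 1 to 5, at 12.4, 12.9, 12.6, 13.2 and 15.8 CPM in persister cultures 1 to 5 and at 43.9 CPM in parental cells. The 5 persister libraries lay close together and below all others, persister 5 the highest, and the parental value lay inside the range of the withdrawn libraries. STARD4's log2 fold change was 1.72 ± 0.10 (SE, adjusted p = 1.41e-07) in withdrawn against persister cells and -1.71 ± 0.14 (SE, adjusted p = 1.26e-05) in persister against parental cells. That is a 3.29-fold higher level in withdrawn than in persister cells. STARD4 had the smallest adjusted p of the 33 genes in both comparisons.

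SREBF2's promoter is shown because, of the 30 genes with a promoter in the RefSeq table, it alone held the sterol regulatory element core that was sought, TCACNCCAC. STARD4's, chosen after its values were seen, is shown because STARD4 had the smallest adjusted p. Both are RefSeq windows of the GRCh38.p14 assembly, the 250 bases before the annotated start, with SREBF2 at chr22:41832855-41833104 on the plus strand and STARD4 at chr5:111512536-111512785 on the minus strand. Capitals mark the sterol element core TCACNCCAC and the NF-Y box CCAAT, on either strand.
SREBF2: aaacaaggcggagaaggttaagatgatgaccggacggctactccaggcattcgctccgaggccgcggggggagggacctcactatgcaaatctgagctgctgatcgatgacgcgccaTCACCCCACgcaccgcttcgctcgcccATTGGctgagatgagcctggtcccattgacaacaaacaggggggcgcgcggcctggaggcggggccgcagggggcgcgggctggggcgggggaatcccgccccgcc
STARD4: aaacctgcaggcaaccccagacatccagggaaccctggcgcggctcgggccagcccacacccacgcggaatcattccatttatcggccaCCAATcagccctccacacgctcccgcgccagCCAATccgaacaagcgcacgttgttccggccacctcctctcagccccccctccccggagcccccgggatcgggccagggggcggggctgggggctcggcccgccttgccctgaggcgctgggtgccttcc
In the SREBF2 window the sterol element core lies at positions -133 to -125 relative to the start, with an inverted NF-Y box at -106 to -102. The STARD4 window holds NF-Y boxes at -161 to -157 and -130 to -126. Of the 30 genes, 1 held the sterol element core (3.33%), beside 1.09% of 27305 genes with a promoter of the same length. CCAAT was found in 22 of the 30 genes (73.3%), beside 37.0% of all genes, and GGGCGG, the box of SP1, in 28 (93.3%), beside 46.2%. CACGTG, an E-box, was found in 4 (13.3%), beside 7.73%. The 30 genes had all passed the filter on low counts, while the 27305 genes were not limited to genes that passed it. The higher shares therefore cannot be read as particular to lipid genes. All 4 motifs were sought on both strands, overlaps between matches were kept, and a gene with several windows counts once. A match is a run of letters and was not tested for binding. Variants of the sterol element core and bases farther upstream were not searched, so a gene without a match may still hold such an element. FASN, SQLE and FDFT1 had no promoter in the RefSeq table.

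INSIG2 (ENSG00000125629, protein-coding, chr2:118088452-118110997, plus strand, hg38) and INSIG1 encode the proteins that retain SCAP in the endoplasmic reticulum. INSIG2 was at 9.01, 11.8, 10.3, 10.2 and 8.89 CPM in withdrawn cultures 1 to 5, at 24.02, 21.2, 21.8, 23.8 and 32.1 CPM in persister cultures 1 to 5 and at 11.1 CPM in parental cells. Every persister library was above every withdrawn library and above the parental library, persister 5 the highest. The log2 fold change of INSIG2 was -1.29 ± 0.13 (SE, adjusted p = 1.13e-05) in withdrawn against persister cells and 1.14 ± 0.25 (SE, adjusted p = 0.00514) in persister against parental cells. INSIG1 was at 134, 109, 136, 147 and 110.4 CPM in withdrawn cultures 1 to 5, at 215, 117, 87.2, 118 and 143 CPM in persister cultures 1 to 5 and at 76.6 CPM in parental cells. All 5 withdrawn and all 5 persister libraries lay above the parental library, and the withdrawn and persister ranges overlapped. INSIG1 did not pass the test: its log2 fold change was -0.10 ± 0.20 (SE, adjusted p = 0.712) in withdrawn against persister cells, 0.83 ± 0.38 (SE, adjusted p = 0.116) in persister against parental cells and 0.73 ± 0.38 (SE, adjusted p = 0.385) in withdrawn against parental cells. It passed in persister against parental cells without persister 3 (log2 fold change 0.96, adjusted p = 0.0487).

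SREBF1 encodes the SREBP that acts mainly on fatty acid genes. SREBF1 was at 118, 121, 118, 112 and 115 CPM in withdrawn cultures 1 to 5, at 184, 92.8, 96.2, 71.8 and 179 CPM in persister cultures 1 to 5 and at 167 CPM in parental cells. Persister 1 and 5 stood above all other libraries, parental included, and persister 2, 3 and 4 below all. No test was passed over the 5 persister libraries, with log2 fold changes of -0.095 ± 0.24 (SE, adjusted p = 0.76) for withdrawn against persister and -0.42 ± 0.40 (SE, adjusted p = 0.449) for persister against parental cells. Without persister 1 and 5, left out together after the data had been seen, SREBF1's log2 fold change was -0.94 in persister against parental and 0.42 in withdrawn against persister cells. These were the highest libraries for SREBF1, so leaving them out set both directions in advance, and no test result is drawn from it. SCAP, the escort of the SREBPs, varied little. SCAP was at 78.1, 78.1, 83.2, 78.6 and 75.9 CPM in withdrawn cultures 1 to 5, at 79.03, 85.01, 72.2, 74.7 and 72.5 CPM in persister cultures 1 to 5 and at 81.4 CPM in parental cells. The ranges overlapped and held the parental value. Its log2 fold change was 0.039 ± 0.07 (SE, adjusted p = 0.663) in withdrawn against persister and -0.086 ± 0.12 (SE, adjusted p = 0.613) in persister against parental cells.

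**Figure D2:**
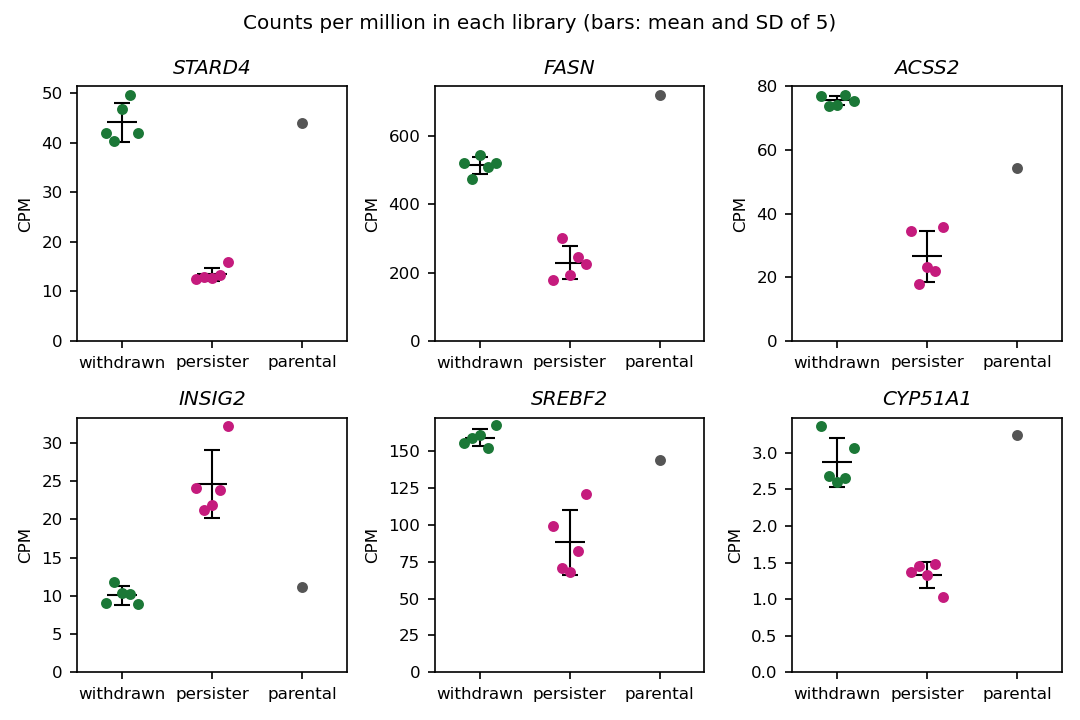
CPM (y axis, from 0) of STARD4, FASN, ACSS2, INSIG2, SREBF2 and CYP51A1 in each withdrawn, persister and parental library (points), with the mean and SD of the 5 libraries of a group (bars). For each gene the withdrawn and persister points do not overlap; STARD4 was at 40.3 to 49.5 CPM in withdrawn and 12.4 to 15.8 CPM in persister cells.

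Of the 6 genes of the mevalonate part, 2 rose and 2 fell in persister against parental cells, and 2 rose and 2 fell in withdrawn against persister cells. Each count is 33.3% of the 6. Of all genes tested, 16.1% rose and 15.1% fell in the first comparison and 24.5% and 28.0% in the second. HMGCS1, which condenses acetyl units to HMG-CoA, was lower in persister than in parental cells. HMGCS1 was at 30.6, 31.1, 34.4, 30.9 and 31.4 CPM in withdrawn cultures 1 to 5, at 28.9, 31.96, 27.6, 39.8 and 30.4 CPM in persister cultures 1 to 5 and at 45.01 CPM in parental cells. The 5 withdrawn and the 5 persister libraries overlapped, and all 10 lay below the parental library. Its log2 fold change was -0.50 ± 0.17 (SE, adjusted p = 0.0416) in persister against parental cells, -0.0025 ± 0.10 (SE, adjusted p = 0.986) in withdrawn against persister cells and -0.51 ± 0.17 (SE, adjusted p = 0.189) in withdrawn against parental cells. The call against parental cells was lost in 10 of 17 alternatives (adjusted p = 0.00411 to 0.188), among them those without persister 1 or 3 or without any 1 withdrawn library. PMVK, which adds the second phosphate to mevalonate, moved the other way. PMVK was at 25.3, 22.5, 23.8, 25.6 and 23.4 CPM in withdrawn cultures 1 to 5, at 34.99, 29.6, 35.5, 29.7 and 29.9 CPM in persister cultures 1 to 5 and at 22.2 CPM in parental cells. The persister libraries were all above the withdrawn and parental ones. Its log2 fold change was -0.40 ± 0.085 (SE, adjusted p = 0.00189) in withdrawn against persister cells and 0.52 ± 0.15 (SE, adjusted p = 0.0226) in persister against parental cells. MVD, which decarboxylates mevalonate diphosphate to the isoprenoid unit, was also higher in persister cells. MVD was at 11.9, 9.02, 12.9, 11.6 and 10.3 CPM in withdrawn cultures 1 to 5, at 16.96, 19.3, 12.8, 15.7 and 17.9 CPM in persister cultures 1 to 5 and at 9.55 CPM in parental cells. Persister 3 overlapped the top of the withdrawn range, and every persister library was above the parental one. In log2 terms, the difference was -0.57 ± 0.13 (SE, adjusted p = 0.00409) for withdrawn against persister and 0.79 ± 0.25 (SE, adjusted p = 0.0305) for persister against parental cells.

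IDI1 interconverts the isoprenoid units. IDI1 was at 44.7, 47.7, 47.2, 46.2 and 43.7 CPM in withdrawn cultures 1 to 5, at 34.7, 43.5, 33.7, 44.4 and 37.2 CPM in persister cultures 1 to 5 and at 54.03 CPM in parental cells. All libraries of persister and withdrawn cells were below the parental value, and the top of the persister range overlapped the bottom of the withdrawn range. edgeR put the log2 fold change at 0.25 ± 0.092 (SE, adjusted p = 0.0398) for withdrawn against persister and -0.48 ± 0.15 (SE, adjusted p = 0.033) for persister against parental cells. The first call was lost in 11 of 18 alternatives (adjusted p = 0.0161 to 0.125), among them every omission of a single library except persister 2 and 4. FDPS, which builds farnesyl diphosphate, averaged 71.3 ± 3.25 CPM in withdrawn and 61.6 ± 5.41 CPM in persister cells (SD, n = 5 each) and 67.7 CPM in parental cells, with a log2 fold change of 0.21 ± 0.077 (SE, adjusted p = 0.0375) in withdrawn against persister cells. That call was lost in 10 of 18 alternatives (adjusted p = 0.0147 to 0.102), among them the fit with the paired cultures as a block (adjusted p = 0.0603) and those without persister 2, 3 or 5 or any 1 withdrawn library. MVK, the mevalonate kinase, did not pass in any comparison and averaged 17.9 ± 0.795 CPM in withdrawn and 18.4 ± 3.15 CPM in persister cells (SD, n = 5 each) and 13.5 CPM in parental cells.

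From squalene to cholesterol, 2 of 11 enzymes fell in persister against parental cells, and 5 rose and 1 fell in withdrawn against persister cells. The first count, 18.2%, is near the 15.1% of all genes tested and so no result about these enzymes. In the second comparison 54.5% were called, near the 52.5% of all genes. By direction, 45.5% rose and 9.09% fell, beside 24.5% and 28.0%. CYP51A1, the lanosterol demethylase, had the largest log2 change of the 11 in both comparisons. CYP51A1 was at 3.36, 2.68, 2.595, 2.65 and 3.07 CPM in withdrawn cultures 1 to 5, at 1.37, 1.46, 1.32, 1.48 and 1.02 CPM in persister cultures 1 to 5 and at 3.24 CPM in parental cells. All persister libraries were below every other library, at low counts. Withdrawn against persister cells gave a log2 fold change of 1.11 ± 0.16 (SE, adjusted p = 0.000158), and persister against parental cells gave -1.28 ± 0.26 (SE, adjusted p = 0.00324). Its value is uncertain. Of its exon bases, 79.4% lie in 2 same-strand annotated genes that were at 0 counts in all libraries. A pseudogene, CYP51A1P2, held 836 counts over all libraries beside 1628 for CYP51A1, so that reads may have been divided between copies. HSD17B7, a sterol ketone reductase, fell in persister cells. HSD17B7 was at 17.4, 15.7, 19.4, 16.6 and 17.8 CPM in withdrawn cultures 1 to 5, at 12.5, 11.1, 10.7, 10.9 and 11.2 CPM in persister cultures 1 to 5 and at 17.6 CPM in parental cells. The persister range lay wholly below the withdrawn and parental values, with persister 1 the nearest. Its log2 fold change was 0.63 ± 0.091 (SE, adjusted p = 0.000151) in withdrawn against persister cells and -0.65 ± 0.15 (SE, adjusted p = 0.00754) in persister against parental cells.

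SQLE, the squalene epoxidase and a rate-controlling step, did not pass in either of these comparisons. SQLE was at 46.6, 47.5, 48.9, 48.7 and 41.3 CPM in withdrawn cultures 1 to 5, at 28.4, 52.2, 33.2, 45.01 and 28.4 CPM in persister cultures 1 to 5 and at 54.6 CPM in parental cells. Persister 1, 3 and 5 were the low libraries, while persister 4 lay inside the withdrawn range and persister 2 above it. Its log2 fold change was 0.32 ± 0.16 (SE, adjusted p = 0.126) in withdrawn against persister and -0.54 ± 0.27 (SE, adjusted p = 0.148) in persister against parental cells. Without persister 2 both passed (0.46, adjusted p = 0.013, and -0.69, adjusted p = 0.0261). FDFT1, the squalene synthase, was higher in withdrawn than in persister cells with no overlap of the ranges. It averaged 177 ± 6.17 CPM in withdrawn and 105 ± 7.55 CPM in persister cells (SD, n = 5 each) and 133 CPM in parental cells, a log2 fold change of 0.75 ± 0.072 (SE, adjusted p = 7.13e-06) in withdrawn against persister cells. Against parental cells the persister value did not pass, at -0.33 ± 0.12 (SE, adjusted p = 0.0553), but it passed in 6 of 17 alternatives. These were DESeq2 (-0.35, adjusted p = 0.0197), median-of-ratios size factors (-0.35, adjusted p = 0.048) and a filter of at least 10 counts in 5 libraries (-0.33, adjusted p = 0.0409). It also passed without persister 1 (-0.37, adjusted p = 0.029), without persister 4 (-0.35, adjusted p = 0.0481) and without persister 1 and 5 together (-0.37, adjusted p = 0.015). LSS, the lanosterol synthase, moved the other way and averaged 22.7 ± 1.93 CPM in withdrawn and 39.1 ± 4.76 CPM in persister cells (SD, n = 5 each) and 32.2 CPM in parental cells, with a log2 fold change of -0.79 ± 0.10 (SE, adjusted p = 5.56e-05) in withdrawn against persister cells. MSMO1, a sterol methyl oxidase, averaged 36.1 ± 1.96 CPM in withdrawn and 30.2 ± 2.84 CPM in persister cells (SD, n = 5 each) and 27.6 CPM in parental cells, with a log2 fold change of 0.26 ± 0.084 (SE, adjusted p = 0.0219) in withdrawn against persister cells. Its call was lost with the paired cultures as a block (adjusted p = 0.0547) and without persister 3, withdrawn 3 or withdrawn 4. SC5D, a sterol desaturase, averaged 50.1 ± 3.48 CPM in withdrawn and 37.8 ± 3.76 CPM in persister cells (SD, n = 5 each) and 34.3 CPM in parental cells, with a log2 fold change of 0.41 ± 0.087 (SE, adjusted p = 0.00223) in withdrawn against persister cells. TM7SF2, NSDHL, EBP and DHCR7, which act on lanosterol and its products, had log2 fold changes of -0.36 to 0.20 in withdrawn against persister and -0.61 to 0.39 in persister against parental cells and did not pass. EBP passed without persister 2 (-0.31, adjusted p = 0.0363) and DHCR7 without persister 3 (-0.47, adjusted p = 0.0175) or persister 4 (-0.46, adjusted p = 0.0215), each lower in withdrawn than in persister cells.

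In fatty acid synthesis, 3 of 5 genes fell in persister against parental cells and the same number rose in withdrawn against persister cells. Of all genes tested, 15.1% fell in the first comparison and 24.5% rose in the second. The 3 genes were FASN, ACSS2 and ACACA in both comparisons, which share the persister libraries. FASN (ENSG00000169710, protein-coding, chr17:82078333-82098332, minus strand, hg38) is the synthase that builds palmitate. FASN was at 519, 472, 542, 509 and 521 CPM in withdrawn cultures 1 to 5, at 179, 301, 193, 246 and 225 CPM in persister cultures 1 to 5 and at 718 CPM in parental cells. All 5 persister libraries were below all 5 withdrawn libraries, and all 10 were below the parental library. The log2 fold change was 1.17 ± 0.13 (SE, adjusted p = 2.15e-05) in withdrawn against persister, -1.65 ± 0.20 (SE, adjusted p = 0.000157) in persister against parental and -0.49 ± 0.22 (SE, adjusted p = 0.312) in withdrawn against parental cells. ACSS2 makes acetyl-CoA from acetate. ACSS2 was at 77.04, 73.8, 74.2, 77.1 and 75.4 CPM in withdrawn cultures 1 to 5, at 34.4, 17.8, 23.3, 21.8 and 35.7 CPM in persister cultures 1 to 5 and at 54.2 CPM in parental cells. Persister 1 and 5 were the higher of the persister libraries, and every withdrawn library was above the parental one. In log2 terms, the difference was 1.504 ± 0.17 (SE, adjusted p = 2.74e-05) for withdrawn against persister and -1.03 ± 0.27 (SE, adjusted p = 0.0153) for persister against parental cells. ACACA, the cytosolic acetyl-CoA carboxylase, showed a smaller difference. ACACA was at 166, 168, 175, 168 and 177 CPM in withdrawn cultures 1 to 5, at 152, 139, 108, 139 and 135 CPM in persister cultures 1 to 5 and at 208 CPM in parental cells. Every withdrawn library lay above all persister libraries and below the parental library. edgeR put the log2 fold change at 0.34 ± 0.09 (SE, adjusted p = 0.00711) for withdrawn against persister and -0.63 ± 0.15 (SE, adjusted p = 0.00801) for persister against parental cells. ACLY, which splits citrate to acetyl-CoA, averaged 386 ± 10.8 CPM in withdrawn and 328 ± 45.5 CPM in persister cells (SD, n = 5 each) and 429 CPM in parental cells and did not pass (log2 fold change 0.24 ± 0.10 (SE, adjusted p = 0.0583) in withdrawn against persister and -0.39 ± 0.16 (SE, adjusted p = 0.0888) in persister against parental cells). Without persister 2 it passed in both (0.31, adjusted p = 0.0077, and -0.46, adjusted p = 0.0182). ACACB, the mitochondrial carboxylase, averaged 12.3 ± 1.096 CPM in withdrawn and 14.4 ± 4.62 CPM in persister cells (SD, n = 5 each) and 8.78 CPM in parental cells and did not pass in either.

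**Figure D3:**
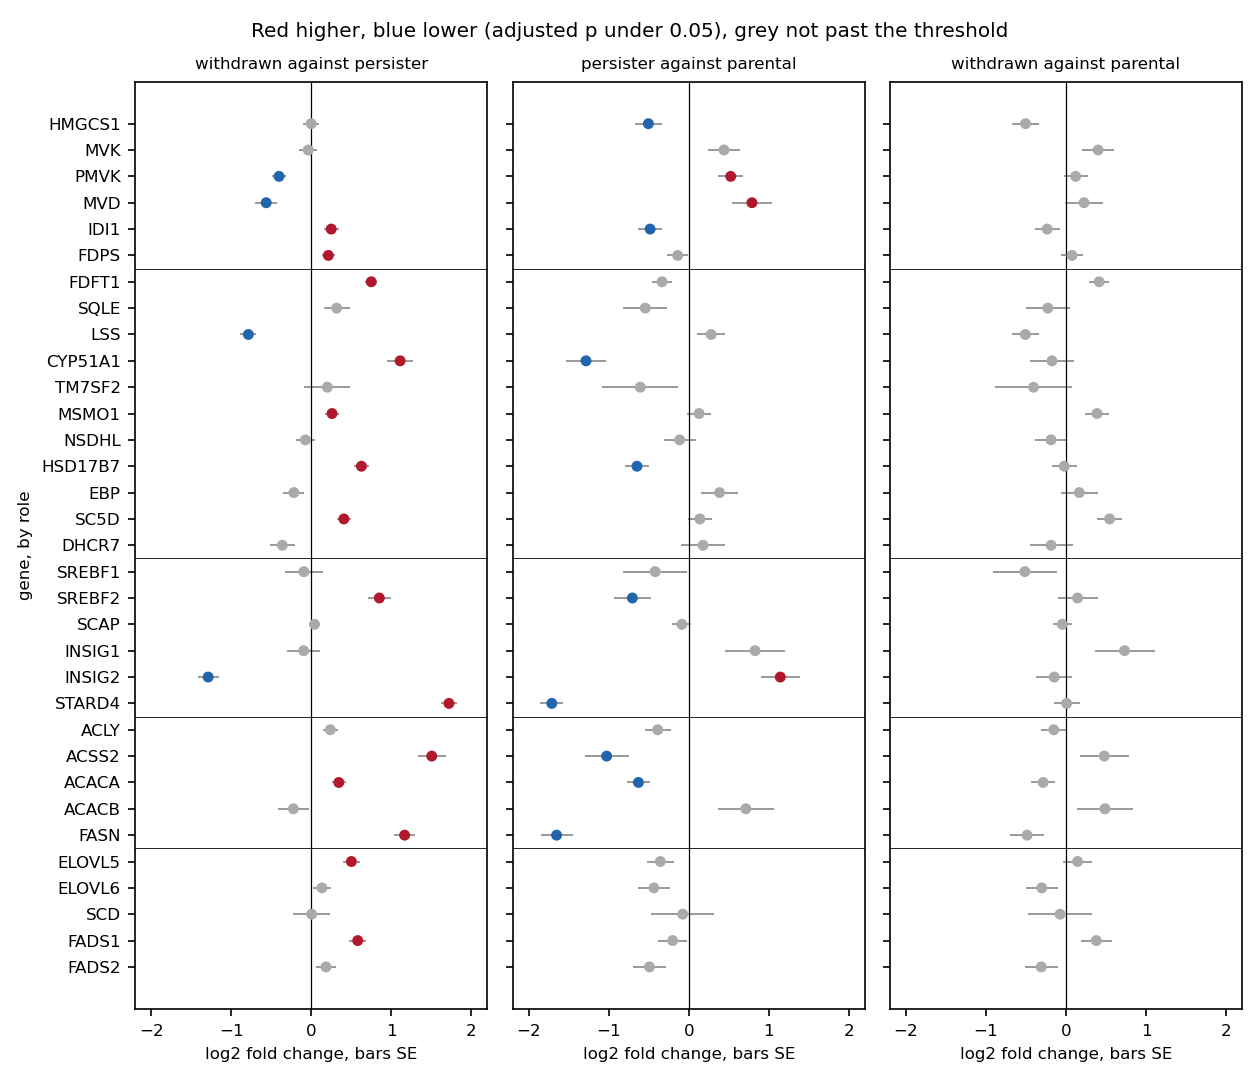
Log2 fold change with its SE for each of the 33 genes in withdrawn against persister (left), persister against parental (middle) and withdrawn against parental cells (right), red for higher and blue for lower at an edgeR adjusted p under 0.05 and grey otherwise. STARD4, FASN, ACSS2 and CYP51A1 lie farthest to the right on the left panel and farthest to the left on the middle panel.

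Among the 5 genes of elongation and desaturation, none passed in persister against parental cells, where 31.2% of all genes tested did. There edgeR gave 2 at an unadjusted p under 0.05, a threshold for which the share of all genes is not given here, and DESeq2 and limma-voom called 0. In withdrawn against persister cells 2 rose, 40.0% beside 24.5% of all genes. ELOVL5, an elongase of polyunsaturated fatty acids, averaged 177 ± 3.07 CPM in withdrawn and 125 ± 19.9 CPM in persister cells (SD, n = 5 each) and 159.8 CPM in parental cells, with a log2 fold change of 0.50 ± 0.10 (SE, adjusted p = 0.00162) in withdrawn against persister cells. FADS1, a front-end desaturase, averaged 256 ± 20.1 CPM in withdrawn and 172 ± 24.6 CPM in persister cells (SD, n = 5 each) and 197 CPM in parental cells, with a log2 fold change of 0.58 ± 0.11 (SE, adjusted p = 0.000809) in withdrawn against persister cells. SCD, the desaturase that makes oleate from stearate, had the highest level per kilobase of exon of the 33 genes, 153 CPM per kilobase in withdrawn, 153 in persister and 161 in parental cells, and varied widely between persister cultures. SCD was at 838, 753, 900.2, 849 and 768 CPM in withdrawn cultures 1 to 5, at 1048, 712, 522, 537 and 1284 CPM in persister cultures 1 to 5 and at 864 CPM in parental cells. Persister 1 and 5 were above all withdrawn libraries and the parental library, while persister 2, 3 and 4 were below them all. Over the 5 persister libraries neither test was passed (log2 fold change 0.0021 ± 0.23 (SE, adjusted p = 0.995) in withdrawn against persister and -0.075 ± 0.40 (SE, adjusted p = 0.901) in persister against parental cells). Without persister 1 and 5, left out after the data had been seen, the log2 fold change of SCD was 0.47 in withdrawn against persister and -0.55 in persister against parental cells. These were the highest libraries for SCD, so leaving them out set both directions in advance, and no test result is drawn from it. ELOVL6 and FADS2 had log2 fold changes of 0.13 and 0.18 in withdrawn against persister and of -0.44 and -0.49 in persister against parental cells and did not pass. In persister against parental cells ELOVL5 passed without persister 2 (-0.44, adjusted p = 0.0197) and ELOVL6 without persister 5 (-0.33, adjusted p = 0.0472), both lower in persister cells.

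Persister 1 and 5 stood apart in more than SCD and SREBF1. The summed CPM of 19 proliferation genes, among them MKI67 and TOP2A, was 1437 in persister 1 and 608 in persister 5, against 3521 to 4799 in the other 3 persister libraries, 3851 to 4165 in withdrawn and 4555 in parental cells. Mitochondrial transcripts took 8.88% and 9.28% of the counts of persister 1 and 5, 4.51% to 6.72% in the other 3, 3.15% to 3.70% in withdrawn and 2.96% in parental cells. Every persister library was thus above all withdrawn libraries and the parental library in this share. Of the 33 genes, 9 were above the other 3 persister libraries in both (LSS, HSD17B7, SREBF1, SREBF2, INSIG1, INSIG2, ACSS2, ACACB and SCD; 27.3%, beside 18.5% of all genes tested) and 5 below them in both (SQLE, ACLY, ELOVL5, FADS1 and FADS2; 15.2%, beside 17.0%). The part of proliferation and of mitochondrial RNA in these values was not tested. Over the 33 genes the median coefficient of variation was 5.47% among withdrawn and 15.04% among persister libraries, beside 12.2% among withdrawn and 29.3% among persister libraries over all genes tested. For 31 of 33 genes the coefficient was larger among persister libraries (93.9%, beside 81.7% of all genes). Without persister 1 and 5 the counts were 15 genes higher and 4 lower in withdrawn against persister cells, where 26.1% of all genes were higher and 28.7% lower. They were 3 higher and 12 lower in persister against parental cells, where 20.1% of all genes were higher and 18.8% lower.

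**Figure D4:**
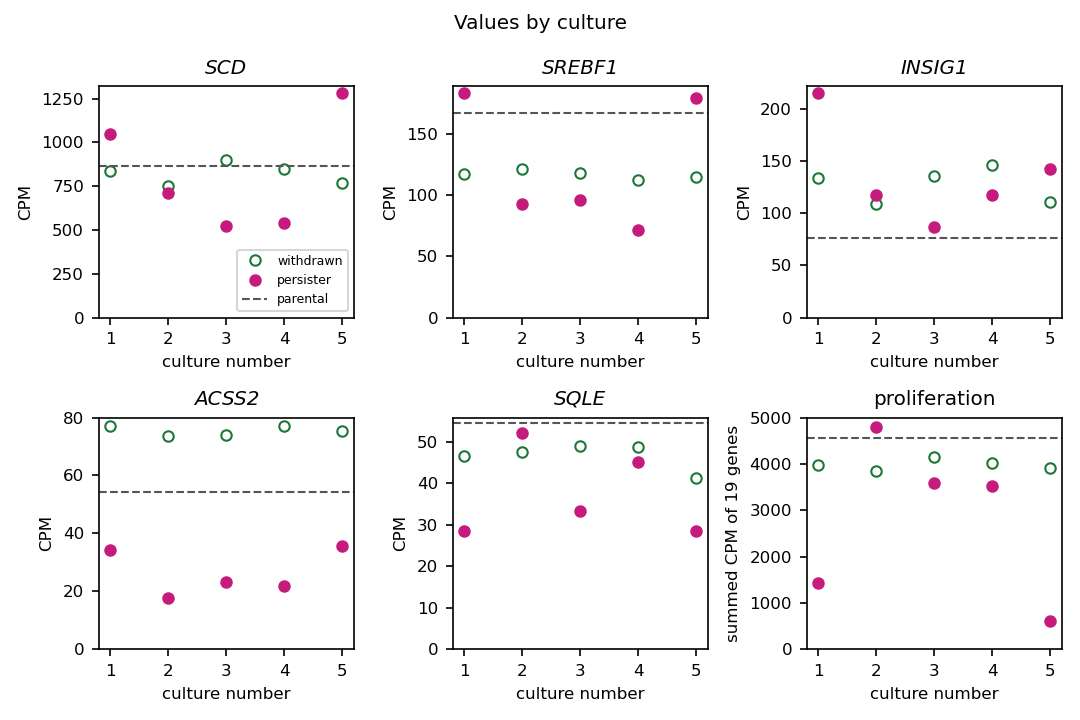
Values by culture number (x axis) in withdrawn (open green) and persister (filled purple) libraries, with the parental library as a dashed line: CPM of SCD, SREBF1, INSIG1, ACSS2 and SQLE, and the summed CPM of the 19 proliferation genes, each from 0. Persister 1 and 5 are high for SCD and SREBF1 and low for the proliferation sum (1437 and 608).

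After withdrawal, none of the 33 genes passed against parental cells in either direction, where 0.431% of all genes tested did. The edgeR test gave 6 of the 33 at an unadjusted p under 0.05. The share of all genes at that unadjusted threshold is not given here, so the 6 cannot be set beside the 0.431%. DESeq2 called 2 genes higher, FDFT1 (adjusted p = 0.0371) and SC5D (adjusted p = 0.0436), where 6.07% of all genes were called, and limma-voom called 0. A fit on only the 6 libraries compared called 8 higher and 8 lower, where 30.5% of all genes were called. The lower ones were HMGCS1, IDI1, SQLE, LSS, SREBF1, ACACA, FASN and ELOVL6, and the higher ones MVK, FDFT1, MSMO1, SC5D, INSIG1, ACSS2, ACACB and FADS1. In that fit the spread came from the 5 withdrawn libraries alone. Without persister 1 and 5, 4 of the 33 were called higher and 2 lower, where 5.38% of all genes were higher and 3.66% lower. The parental library lay outside the range of the 5 withdrawn libraries for 25 of the 33 genes, 75.8% of them, beside 63.8% of all genes tested. The summed CPM of the 5 fatty acid synthesis genes was 1157 ± 39.7 in withdrawn and 732 ± 87.6 in persister cells (SD, n = 5 each) and 1418 in parental cells. That of the 17 cholesterol enzymes was 678 ± 20.2 in withdrawn and 609 ± 38.7 in persister cells (SD, n = 5 each) and 644 in parental cells.

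Lists of related lipid genes outside the 33 are read here beside the 16.1% of all genes tested that rose and the 15.1% that fell in persister against parental cells. Of 12 genes that process SREBPs or feed sterol levels back, 5 rose and 1 fell in persister against parental cells, that is 41.7% and 8.33%, with a median log2 fold change of 0.44. The gene that fell was MBTPS2, the protease that releases SREBPs from the membrane, at 89.1 ± 6.13 CPM in withdrawn and 40.2 ± 6.22 CPM in persister cells (SD, n = 5 each) and 99.4 CPM in parental cells (log2 fold change -1.31 ± 0.17 in persister against parental cells, adjusted p = 0.000212). Of 17 genes of sterol uptake, efflux and storage, 2 rose and 6 fell in persister against parental cells, 11.8% and 35.3% of them, while the median log2 fold change of the 17 was positive, 0.12. LRP8, a lipoprotein receptor, was at 114 ± 5.75 CPM in withdrawn and 25.8 ± 4.95 CPM in persister cells (SD, n = 5 each) and 152 CPM in parental cells (log2 fold change -2.56 ± 0.18 in persister against parental cells, adjusted p = 3.13e-06). ABCA1, the cholesterol exporter, was at 47.2 ± 4.04 CPM in withdrawn and 15.6 ± 7.26 CPM in persister cells (SD, n = 5 each) and 67.4 CPM in parental cells (-2.11 ± 0.37, adjusted p = 0.0019). GRAMD1C, a sterol carrier at membrane contacts, was at 8.12 ± 0.847 CPM in withdrawn and 0.926 ± 0.167 CPM in persister cells (SD, n = 5 each) and 3.96 CPM in parental cells (-2.10 ± 0.23, adjusted p = 9.11e-05). All 3 were lower in persister than in parental cells, and in withdrawn against persister cells 9 of the 17 rose and 4 fell, 52.9% and 23.5% beside 24.5% and 28.0% of all genes.

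Of 20 further genes of fatty acid elongation and activation, 3 rose and 3 fell in persister against parental cells. That is 30.0% in either direction beside 31.2% of all genes, so the count is no result about this list. ACSL3, which activates fatty acids with CoA, was at 517 ± 21.7 CPM in withdrawn and 114 ± 8.95 CPM in persister cells (SD, n = 5 each) and 496 CPM in parental cells (-2.12 ± 0.12, adjusted p = 5.42e-07). HACD1, a dehydratase of elongation, was at 6.20 ± 0.787 CPM in withdrawn and 22.3 ± 4.06 CPM in persister cells (SD, n = 5 each) and 3.60 CPM in parental cells (2.63 ± 0.30, adjusted p = 0.000115). Of 26 genes of fatty acid oxidation and uptake, 10 rose and 3 fell in persister against parental cells, 38.5% and 11.5% of them, with a median log2 fold change of 0.32 beside 0.09 over all genes, and 5 rose and 11 fell in withdrawn against persister cells, 19.2% and 42.3% beside 24.5% and 28.0% of all genes. CD36, a fatty acid receptor, was at 4.06 ± 1.96 CPM in withdrawn and 32.5 ± 9.13 CPM in persister cells (SD, n = 5 each) and 0.444 CPM in parental cells (6.19 ± 0.91, adjusted p = 0.000673). SLC25A20, the carnitine carrier of mitochondria, was at 20.3 ± 1.24 CPM in withdrawn and 43.4 ± 4.37 CPM in persister cells (SD, n = 5 each) and 18.5 CPM in parental cells (1.23 ± 0.17, adjusted p = 0.000336). The 2 were thus higher in persister than in both other kinds of cells. CPT1C, a carnitine palmitoyltransferase of the endoplasmic reticulum, was at 1.97 ± 0.972 CPM in withdrawn and 0.123 ± 0.0527 CPM in persister cells (SD, n = 5 each) and 1.90 CPM in parental cells (-3.94 ± 0.59, adjusted p = 0.000588). Of 10 tested genes of lipogenic supply, 3 rose and 2 fell in persister against parental cells, 50.0% in either direction beside 31.2% of all genes. Among them was SLC25A1, the mitochondrial citrate exporter, at 70.4 ± 5.23 CPM in withdrawn and 125.8 ± 24.3 CPM in persister cells (SD, n = 5 each) and 49.7 CPM in parental cells (1.34 ± 0.24, adjusted p = 0.00166).

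In glycerolipid assembly and droplets, 2 of 15 genes rose and 2 fell in persister against parental cells, 26.7% in either direction beside 31.2% of all genes and so no result about this list. PLIN3, a droplet coat protein, rose by 0.92 ± 0.15 (SE, adjusted p = 0.00107) on the log2 scale, and the acyltransferases GPAM and GPAT3, which start glycerolipid assembly, had log2 fold changes of -0.76 ± 0.22 (SE, adjusted p = 0.022) and -1.801 ± 0.53 (SE, adjusted p = 0.0256). In withdrawn against persister cells the log2 fold change was -0.78 ± 0.082 (SE, adjusted p = 1.24e-05) for PLIN3, 0.81 ± 0.14 (SE, adjusted p = 0.000392) for GPAM and 0.43 ± 0.088 (SE, adjusted p = 0.00156) for AGPAT1, the next acyltransferase of the route. Among 10 enzymes of the sterol side branches, 1 rose and 1 fell in persister against parental cells, 20.0% in either direction beside the same 31.2%. GGPS1, which makes geranylgeranyl diphosphate, had a log2 fold change of 0.74 ± 0.18 (SE, adjusted p = 0.00994) in persister against parental and -0.30 ± 0.10 (SE, adjusted p = 0.024) in withdrawn against persister cells. NUS1 and DHDDS form the enzyme that makes dolichol chains. NUS1 had a log2 fold change of -0.84 ± 0.18 (SE, adjusted p = 0.00504) in persister against parental and 0.35 ± 0.11 (SE, adjusted p = 0.0203) in withdrawn against persister cells, and DHDDS of -0.33 ± 0.13 (SE, adjusted p = 0.0473) in withdrawn against persister cells.

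Further genes of the lists were called as follows. NR1H2, an oxysterol receptor, had a log2 fold change of 0.77 ± 0.16 (SE, adjusted p = 0.00411) in persister against parental cells. In withdrawn against persister cells MBTPS2 was at 1.15 ± 0.11 (SE, adjusted p = 5.21e-06), MBTPS1, the other SREBP protease, at -0.45 ± 0.075 (SE, adjusted p = 0.000377) and SYVN1, a ubiquitin ligase, at -0.40 ± 0.068 (SE, adjusted p = 0.000444) on the log2 scale. The 2 proteases thus moved in opposite directions. VLDLR, a lipoprotein receptor, was higher in withdrawn than in persister cells by 1.604 ± 0.19 (SE, adjusted p = 3.38e-05). ELOVL1, an elongase of very long chains, had a log2 fold change of -1.01 ± 0.09 (SE, adjusted p = 3.98e-06) in withdrawn against persister and 0.94 ± 0.17 (SE, adjusted p = 0.00166) in persister against parental cells. MID1IP1, an activator of acetyl-CoA carboxylase, had 1.38 ± 0.13 (SE, adjusted p = 4.54e-06) in withdrawn against persister and -0.90 ± 0.20 (SE, adjusted p = 0.00578) in persister against parental cells. PRKAB1, a subunit of AMP-activated kinase, which inhibits that carboxylase, had -0.72 ± 0.073 (SE, adjusted p = 9.8e-06) in withdrawn against persister and 0.62 ± 0.13 (SE, adjusted p = 0.00463) in persister against parental cells. The carboxylase's activator was thus lower and this kinase subunit higher in persister than in withdrawn and in parental cells. The list's other subunits of the kinase (PRKAA1, PRKAA2 and PRKAB2) are not given here, and the activity of the carboxylase was not tested. LRP8, GRAMD1C, ACSL3, HACD1, SLC25A1, SLC25A20, CPT1C and CD36 were also called in withdrawn against persister cells, at log2 fold changes of 2.15, 3.13, 2.18, -1.85, -0.84, -1.09, 3.99 and -3.000 in that order.

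Depth was 56513920 to 82984566 counted reads per library. DUSP6 and SPRY4, feedback genes of ERK signalling, were at 186 ± 9.28 and 442 ± 60.7 CPM in withdrawn, 24.8 ± 4.78 and 17.2 ± 7.95 CPM in persister (SD, n = 5 each) and 168 and 445 CPM in parental cells. SOX10, a marker of the melanocyte lineage, was at 792 to 838 CPM in withdrawn, 29.2 to 86.6 CPM in persister and 635 CPM in parental cells. Other markers of this lineage went the other way. DCT was at 16.4 to 64.1 CPM in withdrawn, 229 to 740 CPM in persister and 2.94 CPM in parental cells. MLANA was at 0.445 to 0.826, 11.0 to 23.5 and 1.15 CPM in the same order. TYR was at or near 0 throughout (at most 0.0851 CPM). Of the 10 melanoma lineage markers tested of 11 listed, 5 were higher and 3 lower in persister against parental cells, with a median log2 fold change of 1.13. These counts are 50.0% and 30.0% of the 10, beside 16.1% higher and 15.1% lower of all genes tested. The summed CPM of the 11 was 1675 to 1741 in withdrawn, 585 to 1160 in persister and 1361 in parental cells. SOX10 and CSPG4 made up most of the parental sum, with CSPG4 at 544 CPM in parental and 49.8 to 185 CPM in persister cells. The summed CPM of 9 fibroblast markers was 38.1 to 51.7 in withdrawn, 84.0 to 386 in persister and 19.7 in parental cells. In persister against parental cells 6 of these 9 were higher and 1 lower, 66.7% and 11.1% beside 16.1% and 15.1% of all genes tested. The summed CPM of 6 adipocyte markers was 0.647 to 4.09 in withdrawn, 1.07 to 19.8 in persister and 1.29 in parental cells. Of 9 keratinocyte markers the sum was 55.4 to 59.3 in withdrawn, 54.7 to 101.9 in persister and 63.0 in parental cells. Of 7 leukocyte markers it was 3.53 to 4.97 in withdrawn, 0.553 to 0.913 in persister and 7.07 in parental cells, and of 6 endothelial markers 16.5 to 27.4 in withdrawn, 4.98 to 22.2 in persister and 18.2 in parental cells. The adipocyte gene ADIPOQ reached at most 0.0152 CPM. Some sums were mostly 1 gene. PLIN4 held 19.7 of the 19.8 CPM of the adipocyte sum in persister 3. LUM held 278 of the 386 CPM of the fibroblast sum in persister 5, and LYZ 6.79 of the 7.07 CPM of the parental leukocyte sum. The part of these markers in the lipid genes' values was not tested. Fewer cells of a kind and less RNA per cell cannot be told apart in bulk RNA. Of the 33 genes, 13 share exon bases with a gene on the opposite strand. The strand setting of the counting is not given, so reads of such pairs cannot be told apart. Among them are MVK with MMAB, SREBF1 with RAI1, STARD4 with STARD4-AS1 and FADS1 with FADS2.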

How the data were processed

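PolyA RNA of 11 A375 libraries was sequenced after a stranded mRNA kit, per the labels' protocols. The authors deposited counts of reads per gene, whole numbers with no normalization; the submitters' processing notes name bcl2fastq, HISAT2, HTSeq and hg38, while the sources used here do not give versions, annotation or strand setting. All 58721 gene IDs matched GENCODE 29, and 0 sample columns were left unused. The 33 genes and the lists of related genes were chosen with earlier results of these data known. On the whole table, edgeR 4.0.16 (R 4.3.3) fitted all 11 libraries in 3 groups with filterByExpr (minimum count 10, total 15), TMM scaling and the robust quasi-likelihood test, with Benjamini-Hochberg adjustment over 23693 genes at 0.05; the SE is the log2 fold change divided by the root of F. The fit was run on simulated counts in which each gene had the same spread in all groups, and the outcome is not given here. The real persister libraries varied more than the withdrawn ones, so the simulation does not cover that difference. Levels are CPM after TMM scaling, and per kilobase they use merged exons. Values in every library are given for genes past the threshold in at least 2 comparisons or with an absolute log2 change of at least 1 where called, and for the SREBP, SCAP and INSIG genes, HMGCS1, SQLE, FASN and SCD; of each other list, genes were taken from the 3 called genes with the smallest adjusted p. Per the labels, a withdrawn library continues the persister culture with its number, so numbers pair the samples. The deviations of same-numbered libraries correlated only weakly, at 0.0484 to 0.0909. Each correlation was the highest for its own number, for culture 1 by little (0.0484 beside 0.0439). Alternatives were DESeq2 1.42.0, limma-voom 3.58.1, other scaling, filters and libraries, and the replicate block.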

Additional observations from a re-analysis of the deposited data

Results flagged for a closer look

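In 6 of 66 groups of 5 libraries, 1 library stood apart from the other 4, where chance gives about 1 in 20 groups of normal values. The groups are genes read in the same libraries and so are not independent of each other. The share over all genes was not determined, and no conclusion is drawn from the count. Persister 5 was the highest for INSIG2 (32.1 CPM) and for STARD4 (15.8 CPM), and the lowest for NSDHL (16.2 CPM) and for FADS2 (12.5 CPM). Persister 1 was the highest for HSD17B7 (12.5 CPM), and withdrawn 3 was the highest of the withdrawn libraries for HMGCS1 (34.4 CPM).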

How the results depend on the processing

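In withdrawn against persister cells, 15 of the 18 calls held under all 18 alternatives; the exceptions were IDI1, FDPS and MSMO1. With the paired cultures fitted as a replicate block, 12 genes were higher and 4 lower, and the calls of FDPS and MSMO1 were lost; it changed no other call. In persister against parental cells, 3 of the 12 calls (INSIG2, STARD4 and FASN) held under all 17 alternatives and 8 under all but the fit on the 6 libraries compared, which called 1 higher and 2 lower. In withdrawn against parental cells, where 0 were called, that fit called 8 higher and 8 lower, DESeq2 called 2 higher, and leaving out persister 1 and 5, chosen after seeing the data, called 4 higher and 2 lower. Leaving out 1 library at a time gave 11 to 15 higher and 4 to 5 lower in withdrawn against persister, 3 to 4 higher and 7 to 12 lower in persister against parental, and 0 and 0 in withdrawn against parental cells. The cause was not tested.

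Directions turned as follows, for log2 fold changes mostly near 0, while ACACB was at -0.23. SREBF1 turned past the threshold only without persister 1 and 5, its highest libraries, and no result is drawn from that. In withdrawn against persister cells HMGCS1 was at 0.0048 with limma-voom and 0.0011 with no low-count filter, SREBF1 at 0.0084 with limma-voom, and SCD at -0.010 with median-of-ratios size factors, DESeq2 and the 2 groups alone and -0.011 with at least 10 counts in 5 libraries. Without persister 1 and 5, MVK was at 0.040, SREBF1 at 0.42, INSIG1 at 0.24 and ACACB at 0.15. In withdrawn against parental cells STARD4 was at -0.017 with median-of-ratios size factors and DESeq2, -0.0064 with at least 10 counts in 5 libraries and -0.0078 with the 2 groups alone. Leaving out 1 library at a time, the withdrawn against persister values ran from -0.050 to 0.087 for HMGCS1, -0.22 to 0.13 for INSIG1, -0.093 to 0.066 for MVK, -0.12 to 0.22 for SCD and -0.24 to 0.086 for SREBF1; the withdrawn against parental values ran from -0.070 to 0.0062 for HSD17B7, -0.036 to 0.031 for STARD4 and -0.089 to 0.039 for SPRY4, and the persister against parental values from -0.29 to 0.052 for SCD. The single parental library limits every comparison with it.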
